A study of Mus musculus with 5 samples.

Results

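The genes described here are those of cholesterol and fatty acid synthesis, a list of 31 genes of the SREBP transcription factor pathway, of which 30 were measured among 19938 genes. They comprise 17 enzymes that lead from acetyl-CoA units to cholesterol, 6 genes that control or carry sterol (Srebf1, Srebf2, Scap, Insig1, Insig2 and Stard4), and 7 genes of the fatty acid branch (Acly, Acss2, Acaca, Fasn, Elovl6, Scd1 and Scd2). Acat2 had no probe set naming it alone and is not analysed here. Members were chosen by their role in the pathway, with the values of these genes on the same 5 arrays already known, and each gene's probe set was selected on its highest mean over the arrays. Every value below is therefore a description.

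Each of 5 groups of male ddY mice, 5 weeks old, gave 1 Affymetrix Mouse Gene 1.0 ST array of total RNA from gut. Every group received 2 oral administrations 0.5 hours apart, and tissue was taken 4 hours after the last. The control group (GA+GA) received gum arabic, the vehicle, on both occasions. The LG21+GA group received the bacterium Lactobacillus gasseri OLL2716 followed by vehicle. Aspirin was the last administration in the other groups, after vehicle in GA+Asp, after teprenone, a mucosal protective drug, in Tep+Asp, and after LG21 in LG21+Asp. How many mice stand behind each array is not stated in the labels. With 1 array per group no difference could be tested or set against the spread between animals. In tissue RNA, fewer cells of a type and less RNA per cell cannot be told apart.

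Cells make cholesterol from acetyl-CoA through mevalonate, squalene and lanosterol. When membrane sterol is low, Scap carries the SREBP precursors from the endoplasmic reticulum to the Golgi, where proteases release their active part, and when sterol is ample the Insig proteins hold Scap back. The factor encoded by Srebf2 acts mainly on sterol genes and that of Srebf1 mainly on fatty acid genes, and Insig1 is itself an SREBP target. The activity of the SREBPs was not measured here.

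The promoters of 4 members are shown because these members carry the pattern described below. They were chosen after their values were seen. Insig1, Srebf2 and Hmgcs1 were highest in LG21+GA and lowest in LG21+Asp, and Nsdhl was lowest in LG21+Asp. The sequences are RefSeq windows of assembly GRCm38.p6, from 250 bases before to 50 after the annotated start, all on the + strand, at chr5:28071162-28071461 for Insig1, chr15:82147019-82147318 for Srebf2, chrX:72918271-72918570 for Nsdhl and chr13:119690101-119690400 for Hmgcs1. Capitals mark matches, on either strand, to the sterol regulatory element TCACNCCAC, to CACGTGA, an E-box form that SREBPs also bind, or to CCAAT, the core of the NF-Y site.
Insig1: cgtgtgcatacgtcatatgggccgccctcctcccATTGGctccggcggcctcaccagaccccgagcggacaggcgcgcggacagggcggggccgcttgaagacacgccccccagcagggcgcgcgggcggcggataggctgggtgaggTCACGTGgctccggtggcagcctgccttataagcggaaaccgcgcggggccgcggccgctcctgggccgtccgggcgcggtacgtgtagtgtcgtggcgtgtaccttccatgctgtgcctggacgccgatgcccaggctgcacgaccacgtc
Srebf2: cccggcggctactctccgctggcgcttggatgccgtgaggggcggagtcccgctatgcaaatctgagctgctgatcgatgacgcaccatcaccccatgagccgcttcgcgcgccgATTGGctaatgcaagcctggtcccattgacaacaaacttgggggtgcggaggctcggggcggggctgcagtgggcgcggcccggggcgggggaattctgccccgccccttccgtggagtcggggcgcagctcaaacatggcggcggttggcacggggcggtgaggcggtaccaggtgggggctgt
Nsdhl: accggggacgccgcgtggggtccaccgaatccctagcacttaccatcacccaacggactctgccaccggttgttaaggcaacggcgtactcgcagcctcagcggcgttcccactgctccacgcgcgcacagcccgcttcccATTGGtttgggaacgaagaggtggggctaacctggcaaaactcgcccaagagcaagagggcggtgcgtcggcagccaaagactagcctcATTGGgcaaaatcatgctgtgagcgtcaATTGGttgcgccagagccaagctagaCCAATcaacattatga
Hmgcs1: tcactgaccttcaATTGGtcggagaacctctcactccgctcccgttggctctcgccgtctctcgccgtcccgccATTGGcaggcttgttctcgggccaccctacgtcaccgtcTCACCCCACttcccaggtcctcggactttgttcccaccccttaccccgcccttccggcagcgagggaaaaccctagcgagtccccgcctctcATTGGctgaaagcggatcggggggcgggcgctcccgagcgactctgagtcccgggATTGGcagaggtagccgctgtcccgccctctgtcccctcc
CCAAT was present in 14 of 14 sterol enzyme genes with a promoter entry, in 4 of 5 of the control and transport genes and in 3 of 5 of the fatty acid genes. By window, 22 of 32 member promoters held it (68.8%), against 37.4% of all 32851 promoters. TCACNCCAC was found in Hmgcs1 alone among the members, where 1.24% of all promoters held it. CACGTGA was found in Insig1, Hsd17b7 and Sc5d, against 3.77% of all promoters. These are matches of letters and do not show binding, and the pentamer is short enough to match often. Only exact matches within these windows were counted, so a gene without a match may still hold a sterol regulatory element. Promoters of Fdft1, Fdps, Scd1, Scd2, Sqle and Stard4 were not used here.

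Values are log2 expression values, on which a difference of 1 is a 2-fold difference, and levels of different genes are not comparable. A gene was counted as apart between arrays at a difference of at least 0.2 (1.15-fold). The background consists of 9969 genes with a mean over the arrays greater than 7.41, the median across genes. Of the members 29 lay above it, and Pmvk, with a mean of 7.17, did not. Pearson's r between arrays over all probe sets ran from 0.992 to 0.997. Ties between deposited values were common, with at least a pair of equal arrays in 63.4% of all probe sets and in 17 of the 30 members. All 5 values were equal in Tm7sf2, a sterol reductase gene. The 12 markers of gastric epithelium had a median level between 13.23 and 13.24 on the 5 arrays. That level lay near the highest deposited value, 13.87, and whether values there can still show a change was not tested.

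Member differences were small throughout. No member was 2-fold apart in any of the 7 comparisons, and Scd1 and Insig1 had the widest ranges over the 5 arrays, 0.84 and 0.53. The median of the 17 sterol enzymes lay 0.06 above the control in LG21+GA and, in LG21+Asp, 0.06 below GA+Asp, with exceptions among the enzymes in each comparison. In the fatty acid branch the widest differences were those of Scd1.

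**Figure D1:**
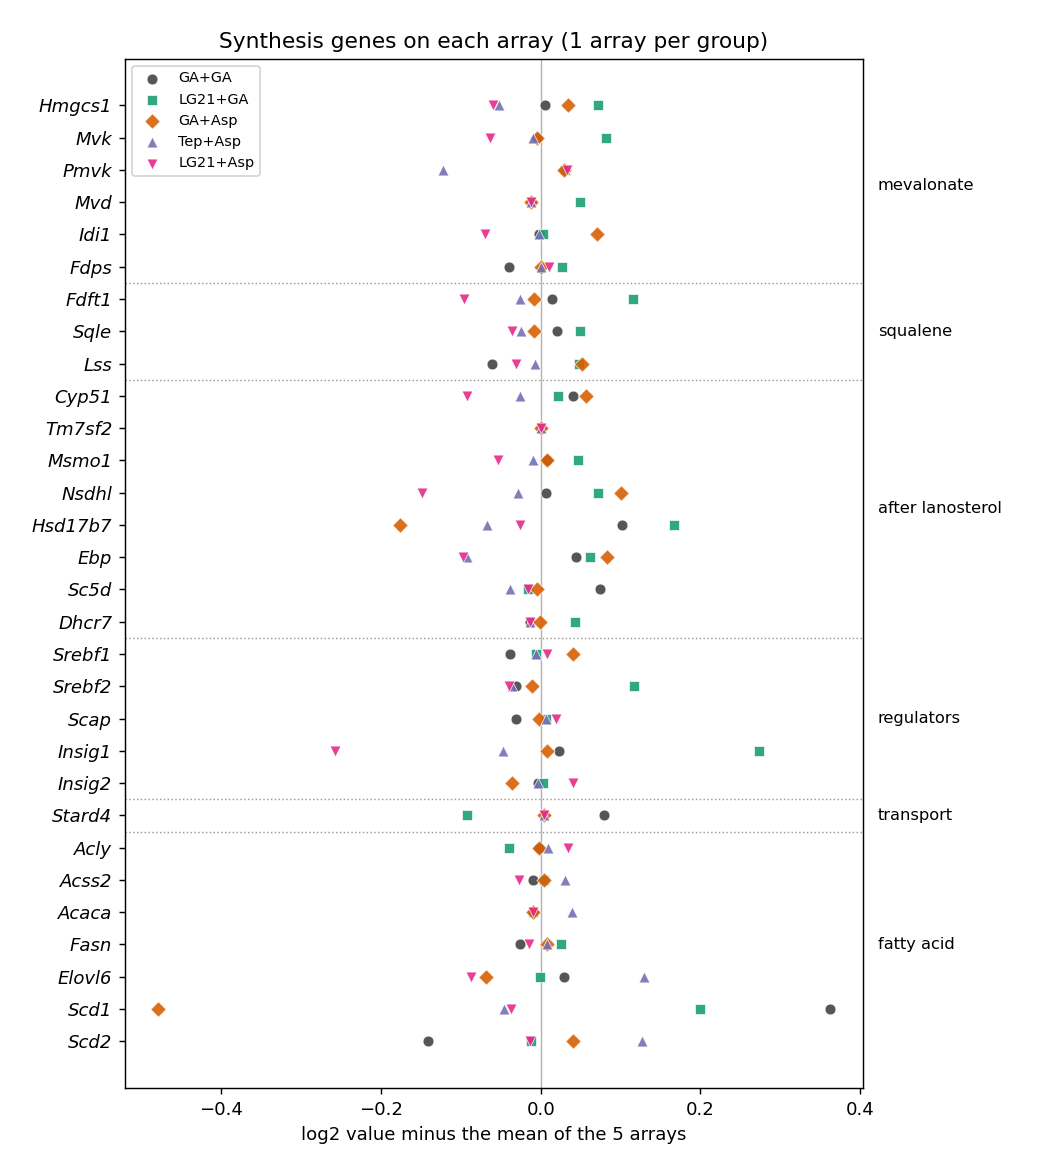
Each point is the log2 value of a gene on 1 array minus that gene's mean over the 5 arrays, for the 30 measured genes in order of their roles, with 1 array per group. LG21+GA lies rightmost and LG21+Asp leftmost for Insig1, Fdft1 and Mvk, among others, and the widest spread is that of Scd1, from GA+GA down to GA+Asp.

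Among the enzymes of the mevalonate segment, all 6 measured lay above the control in LG21+GA, where 46.4% of background genes did, by a median of 0.06, although Idi1 and Pmvk did so by less than 0.01. Hmgcs1, which encodes the cytosolic HMG-CoA synthase at the entry of the pathway, stood at 10.80 in GA+GA, 10.87 in LG21+GA, 10.83 in GA+Asp, 10.75 in Tep+Asp and 10.74 in LG21+Asp. Mvk, mevalonate kinase, stood at 8.59 in GA+GA, 8.67 in LG21+GA, 8.59 in GA+Asp, 8.58 in Tep+Asp and 8.53 in LG21+Asp. In both genes LG21+GA was highest and LG21+Asp lowest. Idi1, the isomerase of isopentenyl diphosphate, stood at 9.70 in GA+GA, 9.71 in LG21+GA, 9.78 in GA+Asp, 9.70 in Tep+Asp and 9.64 in LG21+Asp. Here GA+Asp was highest, and its second probe set gave a larger difference of LG21+Asp from GA+Asp (-0.22 against -0.14). Fdps, farnesyl diphosphate synthase, and Mvd, the decarboxylase of the segment, varied over ranges of 0.07 and 0.06, with LG21+GA highest in each. Pmvk, phosphomevalonate kinase, was lower in Tep+Asp (7.05) than on the other arrays, which all stood at 7.20.

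Of the 3 enzymes around squalene, Fdft1 and Sqle shared an order of arrays. Fdft1, squalene synthase, the first enzyme committed to sterols, stood at 10.81 in GA+GA, 10.91 in LG21+GA, 10.78 in GA+Asp, 10.77 in Tep+Asp and 10.70 in LG21+Asp. LG21+Asp was thus 0.21 below LG21+GA (1.16-fold), and the second Fdft1 probe set gave -0.15. Sqle, squalene epoxidase, stood at 9.21 in GA+GA, 9.24 in LG21+GA, 9.18 in GA+Asp, 9.16 in Tep+Asp and 9.15 in LG21+Asp. Lss, lanosterol synthase, was lowest in GA+GA (8.56) and stood at 8.67 in both LG21+GA and GA+Asp, 8.62 in Tep+Asp and 8.59 in LG21+Asp.

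Past lanosterol, Nsdhl, a sterol dehydrogenase of the demethylation steps, had the second widest range of the enzymes. It stood at 9.44 in GA+GA, 9.51 in LG21+GA, 9.54 in GA+Asp, 9.41 in Tep+Asp and 9.29 in LG21+Asp. LG21+Asp was the lowest array, 0.25 below GA+Asp, and 1.44% of background genes were at least as far below. Ebp, a sterol isomerase, stood at 8.89 in GA+GA, 8.91 in LG21+GA, 8.93 in GA+Asp, 8.76 in Tep+Asp and 8.75 in LG21+Asp, so that its arrays with a treatment before aspirin lay below the other 3. Cyp51, lanosterol demethylase, was likewise lowest in LG21+Asp (8.52) and highest in GA+Asp (8.67). Msmo1, methylsterol monooxygenase, was highest in LG21+GA (10.10) and lowest in LG21+Asp, over a range of 0.10.

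Hsd17b7, the ketoreductase of the same demethylation steps, departed from the other enzymes and had the widest range among them, 0.34. It stood at 8.40 in GA+GA, 8.46 in LG21+GA, 8.12 in GA+Asp, 8.23 in Tep+Asp and 8.27 in LG21+Asp. All 3 aspirin arrays lay below both arrays without aspirin, which also held for the enzymes Fdft1 and Sqle and for Insig1 and Scd1. The lowest array of Hsd17b7 was GA+Asp, where that of Fdft1 and Sqle was LG21+Asp. Sc5d, lathosterol desaturase, was highest in GA+GA (9.80) and lay between 9.69 and 9.72 on the other arrays. Dhcr7, the reductase that completes cholesterol, ranged over 0.06.

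Among the genes of control, Insig1 varied most. It stood at 10.26 in GA+GA, 10.51 in LG21+GA, 10.24 in GA+Asp, 10.19 in Tep+Asp and 9.98 in LG21+Asp. Both LG21 arrays lay outside the other 3, on opposite sides, 1.45-fold apart. LG21+GA was 0.25 above the control, where 0.522% of background genes were at least as far above, and LG21+Asp was 0.27 below GA+Asp, where 1.19% were at least as far below. Srebf2, which encodes the SREBP acting mainly on sterol genes, stood at 10.35 in GA+GA, 10.50 in LG21+GA, 10.37 in GA+Asp, 10.35 in Tep+Asp and 10.34 in LG21+Asp. Its LG21+GA value lay apart from the other 4. Srebf1 stood at 8.38 in GA+GA, 8.41 in LG21+GA, 8.46 in GA+Asp, 8.41 in Tep+Asp and 8.43 in LG21+Asp, with no array far from the rest. Insig2, the paralogue that is not a typical SREBP target, and Scap ranged over 0.08 and 0.05. Stard4, a sterol transport protein and itself an SREBP target, was lowest in LG21+GA (8.08), the array on which Insig1 was highest. It was highest in GA+GA (8.25) and stood at 8.17 on the 3 aspirin arrays.

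In the fatty acid branch, Scd1, which encodes stearoyl-CoA desaturase, an enzyme that makes monounsaturated fatty acids and is abundant in liver and fat, stood at 9.50 in GA+GA, 9.34 in LG21+GA, 8.66 in GA+Asp, 9.09 in Tep+Asp and 9.10 in LG21+Asp. The control was highest and GA+Asp lowest, 1.79-fold apart. In that comparison 0.341% of background genes were at least as far below. Scd2, a desaturase paralogue, was lowest where Scd1 was highest, at 9.19 in GA+GA, and reached 9.46 in Tep+Asp, with 9.37 in GA+Asp and 9.32 on both LG21 arrays. Probe sets of such close paralogues may share signal.

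Elovl6, an elongase of saturated chains, stood at 9.76 in GA+GA, 9.73 in LG21+GA, 9.66 in GA+Asp, 9.86 in Tep+Asp and 9.64 in LG21+Asp. Tep+Asp was the highest array and LG21+Asp the lowest, 0.22 apart. The remaining members varied little. Fasn, fatty acid synthase, ranged over 0.05, Acaca, the acetyl-CoA carboxylase, over 0.05, Acss2, the cytosolic acetyl-CoA synthetase, over 0.06, and Acly, the ATP citrate lyase that supplies acetyl-CoA to both branches, over 0.07. A second Acaca probe set, with a lower mean of 7.27, differed from the one used. It gave -0.11 for Tep+Asp against GA+Asp, where the one used gave 0.05. For LG21+Asp against LG21+GA it gave -0.20, where the one used gave 0.00.

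The comparison of aspirin alone, GA+Asp against GA+GA, asked what the drug does after vehicle. Both branches had a median difference of 0.00, beside 0.01 for all background genes. Of the sterol enzymes 8 lay above 0 and 4 below, where 58.3% and 23.5% of the background did. The split was 9 and 8 after quantile normalization, beside 59.2% and 40.7%, and 7 and 10 after cyclic loess, beside 46.5% and 53.5%. Of the 30 members 0 were at least 0.2 higher, with a background of 2.08%, and 2 were at least 0.2 lower, with a background of 1.6%. The 2 were Scd1 (-0.84) and Hsd17b7 (-0.28). Without a filter on low values 3.31% of all genes were at least 0.2 lower.

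LG21 without aspirin, LG21+GA against GA+GA, had a median of 0.06 for the sterol enzymes and 0.00 for both the fatty acid branch and the background. Of the 17 enzymes 14 lay above 0 and 2 below, where 46.4% and 32.3% of background genes did. Quantile normalization gave 13 and 4 enzymes beside 54.4% and 45%, and cyclic loess 12 and 5 beside 43.9% and 56.1%. The fatty acid genes were split, with 3 above and 3 below. Insig1 was the only member at least 0.2 higher (background 1.0%), and 0 members were at least 0.2 lower (background 1.41%).

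With LG21 given ahead of aspirin, LG21+Asp was set against GA+Asp. The sterol enzymes had a median of -0.06 and the fatty acid branch -0.02, beside -0.01 for the background. Under quantile normalization and cyclic loess the sterol median was -0.025 and -0.033, and the fatty acid median turned to 0.024 and 0.011. Hsd17b7 ran against the other enzymes, at 0.15. Of the enzymes 12 lay below 0 and 3 above, but 58.2% of background genes also lay below and 23.7% above. The background split depended on scaling, at 44.4% below and 55.3% above after quantile normalization, with 10 enzymes below and 7 above, and at 47.4% and 52.6% after cyclic loess, with 11 and 6. Insig1 and Nsdhl were the members at least 0.2 lower (background 2.47%), and Scd1, at 0.44, was the member at least 0.2 higher (background 1.19%).

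Aspirin after LG21, LG21+Asp against LG21+GA, gave the widest displacement of the sterol enzymes among the pairs of arrays, with a median of -0.09. Of the 17 enzymes 14 lay below 0 and 1 above, where 44.6% and 33.9% of the background did. The split was 13 and 4 after quantile normalization, beside 34.9% and 64.7% of the background, and 16 and 1 after cyclic loess, beside 45.1% and 54.9%. The members at least 0.2 lower were Insig1 (-0.53), Scd1 (-0.24), Nsdhl (-0.22) and Fdft1 (-0.21), 4 of 30 against a background of 2.33%, and 0 were at least 0.2 higher (background 0.752%). Fdft1 fell short of 0.2 under quantile normalization (-0.199) and with the mean of its probe sets (-0.179), leaving 3 members in each case. The fatty acid branch had a median of -0.03, with 5 of 7 genes below 0 and 1 above.

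With teprenone given ahead of aspirin, Tep+Asp was set against GA+Asp, the pair of arrays in which the fatty acid branch lay highest. Its median was 0.05, with 6 of 7 genes above 0 and 0 below, while the sterol enzymes had a median of -0.02, with 1 of 17 above and 13 below. The fatty acid median was the value of Acaca, whose second probe set gave -0.11. With the mean of each gene's probe sets that median was 0.026. The background had 28.9% above and 51.8% below. After cyclic loess 9 enzymes lay above and 8 below, beside 56.8% and 43.2%, and after quantile normalization 5 and 11, beside 50.7% and 48.9%. Scd1 (0.43) was the member at least 0.2 higher (background 1.43%), Elovl6 lay at 0.20, just short of the threshold, and 0 members were at least 0.2 lower (background 1.18%).

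LG21 against teprenone, both with aspirin, had medians of -0.01 for the sterol enzymes and -0.05 for the fatty acid branch. The latter was -0.023 with the mean of each gene's probe sets. Of the enzymes 4 lay above 0 and 10 below, where 30.9% and 47.4% of the background did, but 10 and 7 did after quantile normalization, beside 60.6% and 39%, and 8 and 9 after cyclic loess, beside 54% and 46%. Elovl6 (-0.22) and Insig1 (-0.21) were at least 0.2 lower in LG21+Asp (background 1.87%), though neither was under quantile normalization (-0.199 and -0.195), and 0 members were at least 0.2 higher (background 0.792%).

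**Figure D2:**
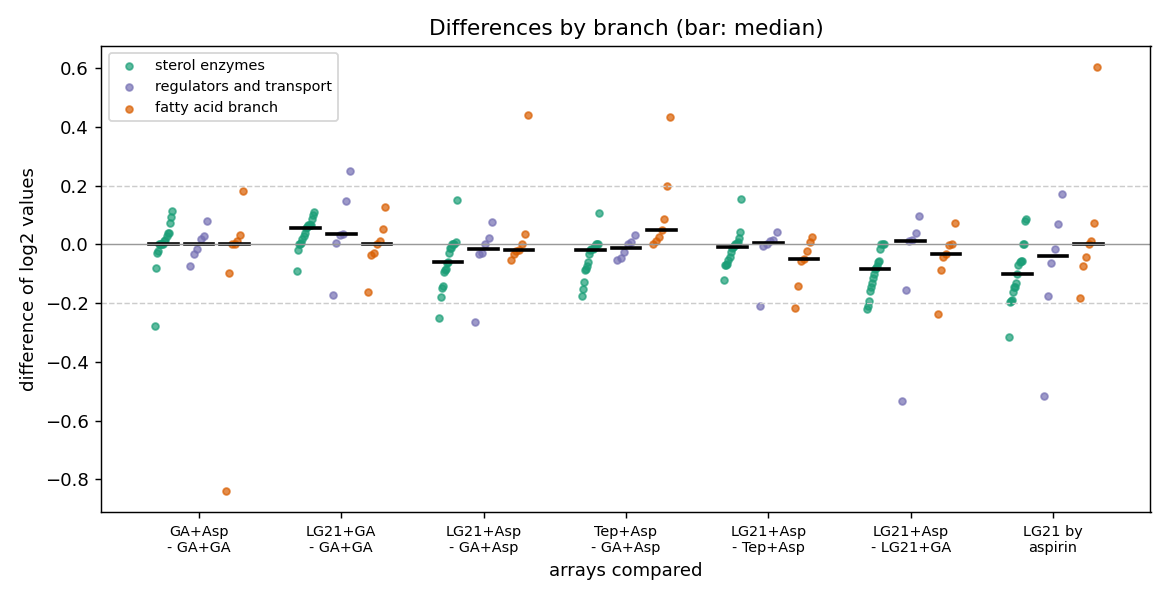
Each point is the difference of log2 values of a gene for the pair of arrays, or for the LG21 by aspirin interaction, named on the horizontal axis, by branch, with a bar at the branch median and dashed lines at 0.2 and -0.2. The sterol enzyme bars lie at 0.06 for LG21+GA against GA+GA and at -0.09 for LG21+Asp against LG21+GA, and the outlying fatty acid point is Scd1.

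The LG21 by aspirin interaction is the LG21 difference with aspirin minus that without. The sterol enzymes had a median of -0.10 and the fatty acid branch 0.00, beside -0.03 for the background, so the branches differed by -0.10, or by -0.055 with the mean of each gene's probe sets. The sterol median was -0.065 under quantile normalization. Of the enzymes 13 lay below 0 and 3 above, where 65.2% and 29.6% of the background did. After quantile normalization 14 lay below, beside 52.9%, and after cyclic loess 14, beside 52.2%. Insig1 (-0.52) and Nsdhl (-0.32) were at least 0.2 below 0 (background 4.79%), and Scd1 (0.60) was at least 0.2 above (background 2.22%). The LG21 difference was at least 0.05 above 0 without aspirin and at least 0.05 below 0 with it in Hmgcs1, Mvk, Fdft1, Lss, Nsdhl, Insig1 and Scd2, 7 of 30 members against 5.93% of the background. Scd1 was the 1 member that ran the opposite way, against 1.67%. Because these comparisons share arrays, they are not independent of each other.

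Which array stood apart can be counted without choosing a control. In 9 of the 17 sterol enzymes the highest value, with no tie, was that of LG21+GA, where 15.5% of background genes had it there. LG21+Asp held the lowest value in 9, against 24.3%. GA+Asp held the highest in 5, against 33.6%, and GA+GA the lowest in 2, against 26.3%. Hmgcs1, Mvk, Fdft1, Sqle and Msmo1, together with Srebf2 and Insig1, combined both, a combination found in 4.14% of the background. With a lead of at least 0.05 over the next array, the counts were 4 and 5, beside 4.64% and 8.59%. Quantile normalization gave 9 and 6, beside 14% and 16.1%. Leaving out the GA+Asp array gave 13 and 9, beside 21.1% and 25.2%, and leaving out GA+GA gave 9 and 10, beside 17.5% and 27.8%.

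Tep+Asp, by contrast, was strictly highest in 0 sterol enzymes and in 4 of the 7 fatty acid genes (Acss2, Acaca, Elovl6 and Scd2), where it was so in 17.2% of the background. With a lead of at least 0.05 the 4 became 2, and the mean of all probe sets gave 3. LG21+GA was strictly highest in 1 fatty acid gene, Fasn.

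**Figure D3:**
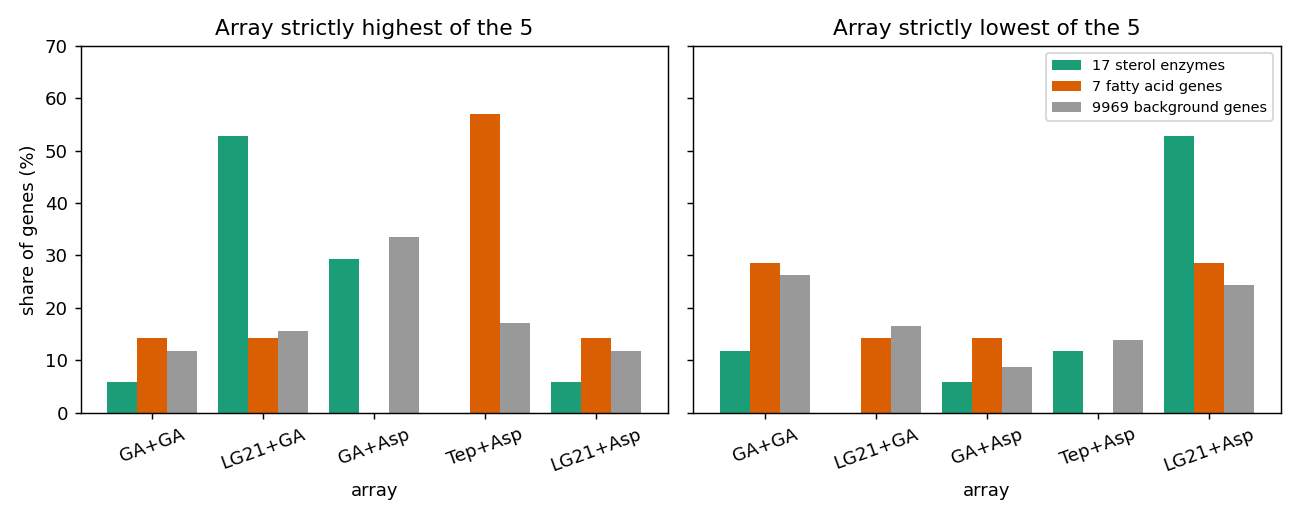
Bars give the share of genes, in percent, for which the array on the horizontal axis was strictly the highest (left) or the lowest (right) of the 5, for 17 sterol enzymes, 7 fatty acid genes and the 9969 background genes. For the sterol enzymes LG21+GA is highest in 52.9% and LG21+Asp lowest in 52.9%, and for the fatty acid genes Tep+Asp is highest in 57.1%.

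Other transcripts of lipid handling were taken from pathway lists. Of 16 further SREBP-related genes measured, 0 were at least 0.2 apart in either direction for aspirin alone, LG21 alone or LG21 before aspirin. The count was also 0 for teprenone before aspirin and for LG21 against teprenone. In these comparisons 0.792% to 2.47% of background genes were that far apart in a given direction, so 0 of 16 lay near the background. Aacs, a cytosolic acetoacetyl-CoA synthetase, was 0.20 lower in LG21+Asp (8.69) than in LG21+GA (8.89) and had an interaction of -0.20, and the desaturase gene Fads2 had one of 0.21. Among these 16 genes LG21+GA had the highest value in 5, where 15.5% of the background did, and LG21+Asp the lowest in 4, close to the background share of 24.3%. Of 9 genes regulated by LXR, the receptor for oxysterols, 2 were at least 0.2 lower with aspirin alone (background 1.6%), the apolipoprotein gene Apoe (-0.50) and the sterol exporter Abcg8 (-0.21), and the cholesterol exporter Abca1 stood at 0.14. Abcg8 lay under the level required of background genes, at 6.68 in GA+GA and 6.47 in GA+Asp. Without that filter 3.31% of all genes were at least 0.2 lower. Apoe was also 0.22 lower with LG21 alone and 0.23 higher with teprenone before aspirin, and the interaction was 0.37 for Apoe and 0.22 for Abcg8. None of 6 measured genes of sterol uptake and storage was 0.2 apart in any comparison. The background share ran from 0.752% to 4.79% by comparison and direction, so 0 of 6 lay near it.

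Markers of other cell types moved with some of these results. The 18 hepatocyte markers were all strictly highest in GA+GA, and 17 were strictly lowest in GA+Asp, with median levels of 9.65 in GA+GA, 8.78 in LG21+GA, 7.97 in LG21+Asp, 7.03 in Tep+Asp and 6.53 in GA+Asp. Scd1 was the 1 member of 30 with exactly this order of arrays, found in 0.532% of background genes and in 16 of the 18 markers. GA+Asp was strictly lowest in 3 of the 30 members, Scd1, Hsd17b7 and Insig2, beside 8.69% of the background. Apoe and Abcg8 were also lowest in GA+Asp. Unlike the hepatocyte markers, Hsd17b7 was highest in LG21+GA and Insig2 in LG21+Asp. The part of liver RNA in the Scd1, Hsd17b7, Apoe and Abcg8 differences was not tested.

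The 16 markers of squamous epithelium had median levels of 9.23 in Tep+Asp, 8.84 in GA+Asp, 8.78 in GA+GA, 8.63 in LG21+GA and 7.35 in LG21+Asp. Tep+Asp was strictly highest in 14 of them and LG21+Asp strictly lowest in 15. Elovl6 was highest and lowest on the same arrays, and 9 sterol enzymes and Insig1 were also lowest in LG21+Asp. The part of squamous tissue in these differences was not tested. In LG21+GA, where the sterol enzymes and Insig1 lay above the control, the squamous markers had a median difference of 0.01 from the control, although their median level was lower, and the hepatocyte markers -0.68. The part of either tissue in the sterol enzyme and Insig1 differences on that array was not tested. The 12 enterocyte markers went both ways in LG21+GA against the control, 6 above 0 and 5 below with a median of 0.04, from 1.37 for the alkaline phosphatase Akp3 to -0.36 for the keratin Krt20. LG21+GA held the highest value in 4 of the 12, against 15.5% of the background, and the part of these cells in the sterol differences was not tested. The 11 adipocyte markers had a median level between 8.84 and 8.86 on all arrays. That median was the value of Cidec on each array and does not describe the other markers. GA+Asp was strictly lowest in 4 of the 11 and strictly highest in 3, beside 8.69% and 33.6% of the background. In GA+Asp against GA+GA 4 markers lay above 0 and 5 below. Those at least 0.2 apart were Car3, a carbonic anhydrase of fat, muscle and liver (-0.73), Adipoq, adiponectin (-0.42), and Plin4, a lipid droplet protein (0.22). Car3 had the same order of arrays as Scd1. The part of fat in the Scd1 differences was not tested.

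**Figure D4:**
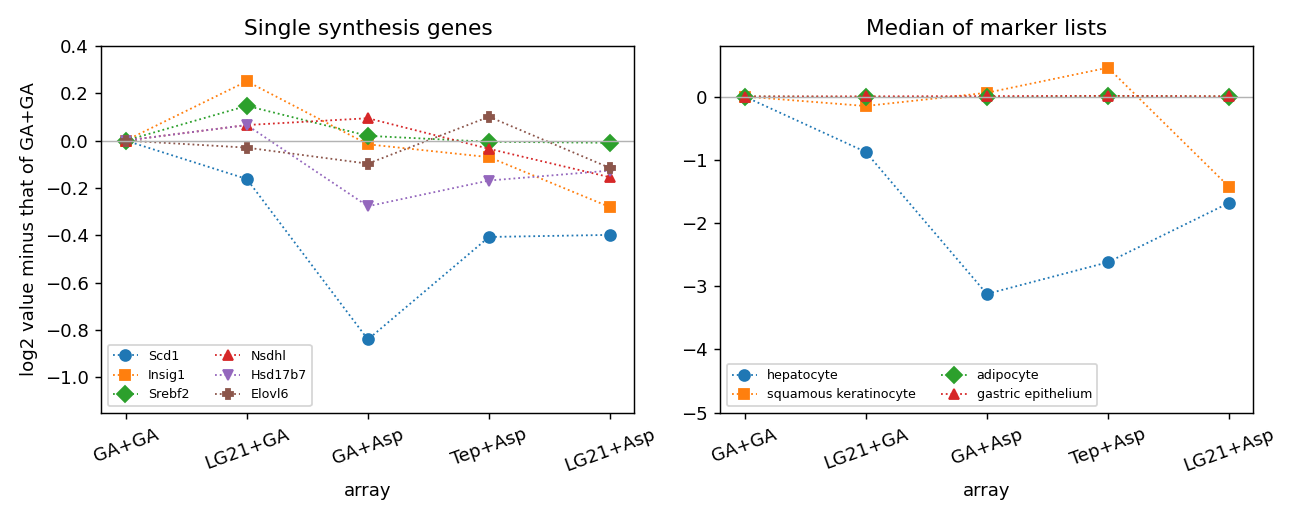
The left panel gives the log2 value of 6 synthesis genes on each array minus that of GA+GA, and the right panel the same for the median of 4 marker lists, with dotted lines only joining points of a gene or list. Scd1 is lowest in GA+Asp at -0.84, as is the hepatocyte median, and Insig1 reaches 0.25 in LG21+GA.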

How the data were processed

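Per the labels, the authors made the deposited log2 values with RMA in Expression Console. The design text of the series names another program, Affymetrix's Exon Array Computational Tool. RMA corrects background, normalizes between arrays and summarises each probe set. The log2 scale was taken from the values, which lay between 1.32 and 13.87. Versions of the authors' software, and the build, are not given in the sources used here. Their normalization was kept, and array medians lay between 6.94 and 6.98.

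Of 35557 probe sets, 21789 named 1 gene in the platform annotation, 1621 several and 12147 none. The probe set with the highest mean over the 5 arrays stood for its gene. The members, gene lists and thresholds were chosen with earlier results of these data known. All members are named, with values on every array for the 3 of widest range in each role group and any member over 0.3 apart. Genes of other lists are named only where they were at least 0.2 apart or among the first 3 of their list. The plan spoke of 18 sterol enzymes and 24 sterol branch members, of which 17 and 23 were measured. For 6 pairs of arrays and the interaction, log2 values were subtracted, with no test, since each group had 1 array. Precision is limited by that number. Alternatives were quantile normalization and cyclic loess with 3 iterations (limma 3.58.1 in R 4.3.3), the mean of probe sets, no filter, a 2-fold threshold and other member sets. Leaving out the GA+Asp or GA+GA array, Scd1 or Hsd17b7 was added after seeing the data. The counting was tested on simulated data. Promoters were RefSeq entries of GRCm38.p6 matched by symbol for 24 of the 30 genes. Python 3.11.15 was used.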

Additional observations from a re-analysis of the deposited data

Results flagged for a closer look

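Opposite LG21 differences with and without aspirin, each at least 0.05, drew attention. With 1 array per group none of these differences between backgrounds was tested. For LG21 without and then with aspirin, the sterol enzyme median was 0.06 and -0.06. It was 0.054 and -0.025 under quantile normalization and 0.049 and -0.033 under cyclic loess, so neither setting met the 0.05 rule. Insig1 stood at 0.25 and -0.27, Nsdhl at 0.07 and -0.25, and Fdft1 at 0.10 and -0.09. Lss stood at 0.11 and -0.08, Hmgcs1 at 0.07 and -0.09, and Mvk at 0.09 and -0.06. Scd2 stood at 0.13 and -0.05, and Scd1 turned the other way, -0.16 and 0.44. In the background 5.93% of genes ran up and then down in this way and 1.67% down and then up.

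The GA+Asp array enters the first of these differences for aspirin and also that of LG21 with aspirin. For aspirin after vehicle and then after LG21, Idi1 stood at 0.07 and -0.07, Lss at 0.11 and -0.08, Nsdhl at 0.09 and -0.22, and Stard4 at -0.07 and 0.10.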

How the results depend on the processing

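No paired analysis was possible because each group had 1 array, and leaving out a replicate was not possible for the same reason. A value was taken to have shifted when it moved by over 0.05, or a count by over 1.5 times. Since most medians lay near or under 0.05, that tolerance says little about their stability. Medians near 0 turned in sign. The sterol enzyme median for teprenone before aspirin went from -0.018 to 0.002 under cyclic loess and that for LG21 against teprenone from -0.007 to 0.001 under quantile normalization. The fatty acid median for LG21 before aspirin went from -0.018 to 0.024, 0.011 and 0.05 under quantile normalization, cyclic loess and the mean over members. No single-member difference past 0.2 turned in sign, but Fdft1, Insig1 and Elovl6 each lost 1 such call, as given above.

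With the mean in place of the median the fatty acid branch became -0.102 for aspirin alone, 0.05 for LG21 before aspirin, 0.115 for teprenone before aspirin and 0.055 for the interaction. The sterol enzymes minus the fatty acid branch then became 0.103, -0.108, -0.159 and -0.152. At a 2-fold threshold the members counted were 0 in all comparisons. At 0.2, quantile normalization and cyclic loess counted 2 members higher with teprenone, and quantile normalization 0 lower for LG21 against teprenone.

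Counts of the array that was highest or lowest were less stable. For sterol enzymes a lead of 0.05 gave 0 highest in LG21+Asp, 4 in LG21+GA and 1 in GA+Asp, and 5 lowest in LG21+Asp, 1 in Tep+Asp and 0 in GA+GA. Quantile normalization gave 2 highest in LG21+Asp, and 1 lowest in LG21+GA, 3 in GA+Asp and 4 in Tep+Asp. Cyclic loess gave 3 highest in GA+GA and 0 in LG21+Asp, and 4 lowest in GA+Asp and 4 in Tep+Asp. Without GA+Asp, 2 were highest in GA+GA. For the fatty acid branch a lead of 0.05 gave 2 highest in Tep+Asp and 0 in LG21+GA and LG21+Asp, and 1 lowest in GA+GA and 0 in LG21+GA and LG21+Asp. Quantile normalization gave 0 lowest in LG21+Asp and 4 in GA+Asp, and cyclic loess 1 and 3. The mean of probe sets gave 2 highest in LG21+GA, as did leaving out GA+GA, which also gave 4 lowest in LG21+Asp, and without GA+Asp 1 was lowest in Tep+Asp. Beyond the construction of the mean and the lead, the cause was not tested. With 1 array per group, no difference could be set against variation between animals.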
